A study of Mus musculus with 2 samples.

Results

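The 10 genes described here handle fatty acids in alveolar macrophages (AMs). They are the fatty acid binding proteins *Fabp1*, *Fabp4* and *Fabp5*, the fatty acid oxidation genes *Cpt1a*, *Acaa2* and *Acaa1b*, the fuel switch kinase gene *Pdk4*, the lipid droplet genes *Plin2* and *Cidec*, and the leptin receptor gene *Lepr*. They were listed by name out of 32285 genes in the tables, with earlier results of these libraries known, so their levels are a description and carry no test. All 10 passed the filter on low values, a mean level of at least 1 UMI per 1000000 UMIs (CPM) over both libraries, as did 11030 genes in all.

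AMs are the resident phagocytes of the air spaces and are known for clearing surfactant, a film rich in lipid. Fatty acid binding proteins carry fatty acids through the cytosol, the carnitine shuttle and the beta-oxidation enzymes break them down in mitochondria and peroxisomes, and the perilipin and CIDE proteins coat and enlarge the droplets in which neutral lipid is stored. The nuclear receptor PPARγ is known to be needed for AM identity and to drive several of these genes in fat cells and macrophages.

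Single-cell RNA-Seq was performed on sorted AMs from the lungs of C57BL/6 mice at post natal week 10, in 2 droplet libraries. The control library, labelled Ctrl-alveolar macrophage (AM), came from vehicle-control mice, and the tumor library, labelled Tumor-alveolar macrophage (AM), from mice with an orthotopic tumor of Lewis lung carcinoma (LLC) cells, a mouse cell line, placed in the left lung. The labels name no altered gene in either group. The study worked with female mice, bred experimental and control animals separately, and defined AMs, among CD45+ cells with strong autofluorescence, as Siglec-F+ CD11b- cells, apart from the CD11b+ Siglec-F- macrophages that this population also held in tumor-bearing lungs.

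There was 1 library per condition, and the number of mice behind each was not given in the sources used here. Cells of 1 library are not replicates, so no test between conditions exists, and tumor bearing cannot be told apart from any other difference between the 2 libraries. The control library held 8485 barcodes and the tumor library 9175. Barcodes with at least 500 genes and at most 10% mitochondrial UMIs were kept, which left 6185 control and 7666 tumor cells, with medians of 10370 and 8264 UMIs. Of the kept barcodes, 17 sequences occurred in both libraries. Among 13 AM markers, 12 reached 50 CPM in each library, and their summed level was 18192 CPM in the control and 15885 CPM in the tumor library, most of it *Chil3*. The fat cell markers, the other usual home of *Fabp4*, *Cidec* and *Plin2*, summed to 2.85 and 1.90 CPM over 5 genes, with *Adrb3* at 0 in both libraries and *Adipoq* at 0 in the tumor library.

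Among the fatty acid binding proteins, *Fabp1* was far lower in the tumor library, *Fabp5* was higher and *Fabp4* was nearly level. *Fabp1*, the liver-type protein (chr6:71199827-71205023, plus strand, GRCm38, 4 exons), reached 515 CPM in control cells (95% Poisson interval 509 to 521) and 130 CPM in tumor cells (127 to 132). This is a 3.97-fold difference, with a log2 ratio of tumor over control of −1.99 (−2.02 to −1.96), the 53rd lowest of the 11030 genes. The intervals here and below cover counting error only, not the spread between mice.

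The bases upstream of *Fabp1* are shown because it had the lowest ratio of the 10 genes, and those of *Acaa1b* and *Cidec* because the 3 genes formed the pairs of highest correlation across tumor library cells. Each sequence is the 120 bases directly before the transcribed region, read 5′ to 3′ from the RefSeq promoter table of GRCm38.p6. Capitals mark a match to 2 copies of AGGNCA in the same direction with 1 base of any kind between them, a direct repeat (DR1) of the kind that PPARs are known to bind, searched on both strands.
Fabp1, chr6:71199707-71199826, plus strand: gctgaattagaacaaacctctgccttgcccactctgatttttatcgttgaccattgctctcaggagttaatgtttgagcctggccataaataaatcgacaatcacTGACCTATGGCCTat
Acaa1b, chr9:119157094-119157213, minus strand: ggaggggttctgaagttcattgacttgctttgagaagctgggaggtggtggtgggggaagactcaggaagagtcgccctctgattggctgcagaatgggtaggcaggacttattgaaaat
Cidec, chr6:113435761-113435880, minus strand: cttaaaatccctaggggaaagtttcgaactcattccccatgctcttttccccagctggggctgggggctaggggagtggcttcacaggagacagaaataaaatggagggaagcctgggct

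The *Fabp1* match, TGACCTATGGCCT, lay on the opposite strand, with its first base 67 bases before the RefSeq start, which lies inside the gene as GENCODE gives it, and the printed bases end where the GENCODE gene begins. The motif occurred in 125 of 32851 promoter windows of 250 bases before to 50 after a start, or 0.381%. Of the 10 genes, 7 had a window in the table and 1, *Fabp1*, held the motif. *Fabp4*, *Fabp5* and *Acaa2* had no entry. The stricter form with 2 copies of AGGTCA was in 0.0396% of windows and in none of those 7 genes. A single AGGTCA, which the longer motifs overlap, was in 16.3% of windows and in 3 of the 7 genes, *Fabp1*, *Cpt1a* and *Plin2*. A match describes letters in a window and says nothing of binding.

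*Fabp4*, the adipocyte-type protein (chr3:10204088-10208576, minus strand, 4 exons), was at 349 CPM (344 to 353) in the control and 372 CPM (368 to 377) in the tumor library, for a log2 ratio of 0.09 (0.07 to 0.12). *Fabp5*, the epidermal-type protein (chr3:10012548-10016607, plus strand, 4 exons), was at 1019 CPM (1011 to 1027) and 1742 CPM (1732 to 1752), a log2 ratio of 0.77 (0.76 to 0.79). *Fabp5* was therefore higher in the library where *Fabp1* was lower.

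Of the oxidation genes, those of the mitochondrial steps were nearly level and the peroxisomal one was lower in the tumor library. *Cpt1a* encodes the carnitine palmitoyltransferase that lets long-chain fatty acids into mitochondria (chr19:3322334-3385733, plus strand, 19 exons). It was at 133 CPM (130 to 136) in the control and 133 CPM (130 to 135) in the tumor library, with overlapping intervals and a log2 ratio of −0.00 (−0.05 to 0.04) whose sign changed with the scaling, over a range from −0.02 to 0.05. *Acaa2* encodes a mitochondrial thiolase, which cuts acetyl-CoA off the chain in the last step of each round (chromosome 18, plus strand, 10 exons). It was at 71.6 CPM (69.5 to 73.7) and 61.8 CPM (60.0 to 63.7), a log2 ratio of −0.21 (−0.27 to −0.15).

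*Acaa1b*, a peroxisomal thiolase (chr9:119148023-119157093, minus strand, 12 exons), was at 126 CPM (123 to 129) in the control and 53.1 CPM (51.4 to 54.8) in the tumor library, 2.38-fold lower. Reads of *Acaa1b* are less certain than those of the other genes. Of the 410 windows of 91 bases, the length of the cDNA read, in the last 500 bases of its transcript, 22.7% occurred exactly in its paralog *Acaa1a*, against 0% for each of the other 9 genes, and its last exon overlaps *Dlec1* on the opposite strand. *Acaa1a* itself was at 113 CPM and 96.1 CPM, a log2 ratio of −0.23 beside −1.25 (−1.30 to −1.19) for *Acaa1b*. *Pdk4*, the kinase that shuts off pyruvate dehydrogenase when cells burn fat (chr6:5483351-5496309, minus strand, 11 exons), was at 30.2 CPM (28.9 to 31.6) and 17.2 CPM (16.2 to 18.2), a log2 ratio of −0.82 (−0.92 to −0.71).

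*Plin2*, the main coat protein of lipid droplets in macrophages (chr4:86648386-86670060, minus strand, 8 exons), was at 1210 CPM (1201 to 1218) in the control and 1048 CPM (1040 to 1055) in the tumor library, for a log2 ratio of −0.21 (−0.22 to −0.19). *Cidec*, which fuses small droplets into larger ones (chr6:113424634-113435760, minus strand, 6 exons), was at 254 CPM (250 to 258) and 151 CPM (148 to 154), 1.68-fold lower. *Lepr*, the receptor for the fat cell hormone leptin (chr4:101717404-101815352, plus strand, 19 exons), was at 99.3 CPM (96.9 to 101.7) and 46.3 CPM (44.7 to 47.9), 2.14-fold lower. The droplet coat was thus nearly level while the droplet-enlarging gene and the receptor were lower in the tumor library.

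Over the 10 genes, 8 were lower in the tumor library and 2 were higher, beside 57.4% and 42.6% of all genes. By at least 2-fold, 3 were lower (*Fabp1*, *Acaa1b* and *Lepr*) and 0 were higher, beside 3.30% of all genes lower and 3.93% higher. The median log2 ratio was −0.48 over the 10 genes and −0.05 over all genes tested. Setting the median ratio to 1 over the 3119 genes with a mean of at least 50 CPM, whose median log2 ratio was −0.02, shifted all log2 ratios by less than 0.1 and turned *Cpt1a* from lower to higher.

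**Figure D1:**
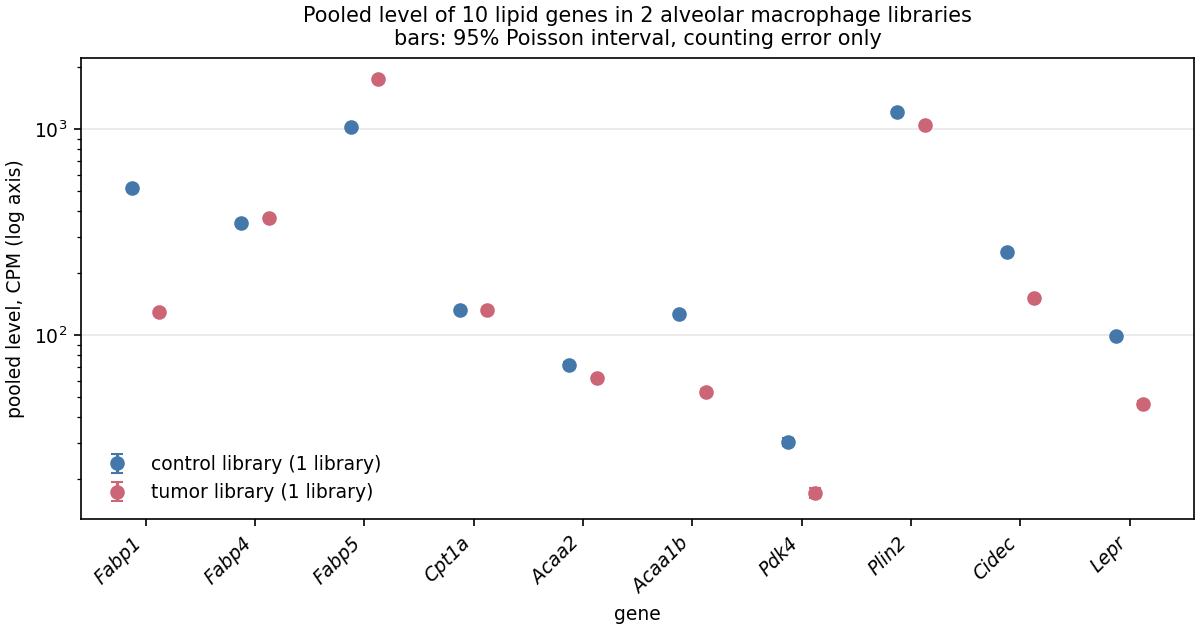
Level of each gene in CPM (vertical log axis) in the control and the tumor library, as UMIs summed over the kept cells; bars are 95% Poisson intervals, often smaller than the points. *Fabp1* shows the widest gap, 515 against 130 CPM, while the *Cpt1a* points lie side by side at 133 CPM.

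To tell whether fewer cells had a transcript, each cell was thinned to 3800 UMIs, which kept 5590 control and 6937 tumor cells. *Fabp1* was then detected in 61.6% of control cells (95% exact binomial interval 60.3 to 62.9%) and 24.1% of tumor cells (23.1 to 25.1%), a difference of −37.5 percentage points, the widest of the 10. The share with at least 2 *Fabp1* UMIs was 40.6% and 11.5%. Unthinned, 77.9% and 34.6% of the cells outside the cluster of other cell types had a *Fabp1* UMI.

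*Cidec* was detected in 58.5% of control and 37.1% of tumor cells, *Acaa1b* in 34.6% and 15.2%, *Lepr* in 27.8% and 14.0%, and *Pdk4* in 8.0% and 4.4%. *Fabp5* went the other way, from 78.1% to 88.7%, and cells with at least 10 of its UMIs from 7.37% to 16.3%. *Fabp4* (45.3% and 45.6%) and *Cpt1a* (39.2% and 39.7%) were nearly level. Their intervals of the difference ran from −1.53 to 2.0 and from −1.23 to 2.23 percentage points. Such intervals count the cells of 1 library each and are no test between conditions. *Acaa2* was seen in 23.3% and 20.5%, and *Plin2* in 97.4% and 94.9%, so that nearly every cell had the droplet coat transcript in both libraries.

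Free RNA gives UMIs in cells that lack a gene. A cluster led by *Dcn*, *Igfbp4* and *Col3a1*, with 27 control and 35 tumor cells, was taken as cells of other types, with medians of 3901 and 6488 UMIs against 10380.5 and 8268 in the remaining cells. *Col3a1* had only 12 UMIs in the whole control library and 822 in the tumor library. What the 27 control cells of this cluster are was not tested. Unthinned, *Fabp1* was found in 6 of its 27 control cells (22.2%) and in 1 of its 35 tumor cells (2.86%), *Plin2* in 48.1% and 51.4%, *Fabp5* in 37.0% and 51.4%, and *Pdk4* in 0 of 27, which allows a share of up to 11.1%, and 1 of 35. In each gene and library these shares were lower than in the remaining cells, which were also deeper.

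**Figure D2:**
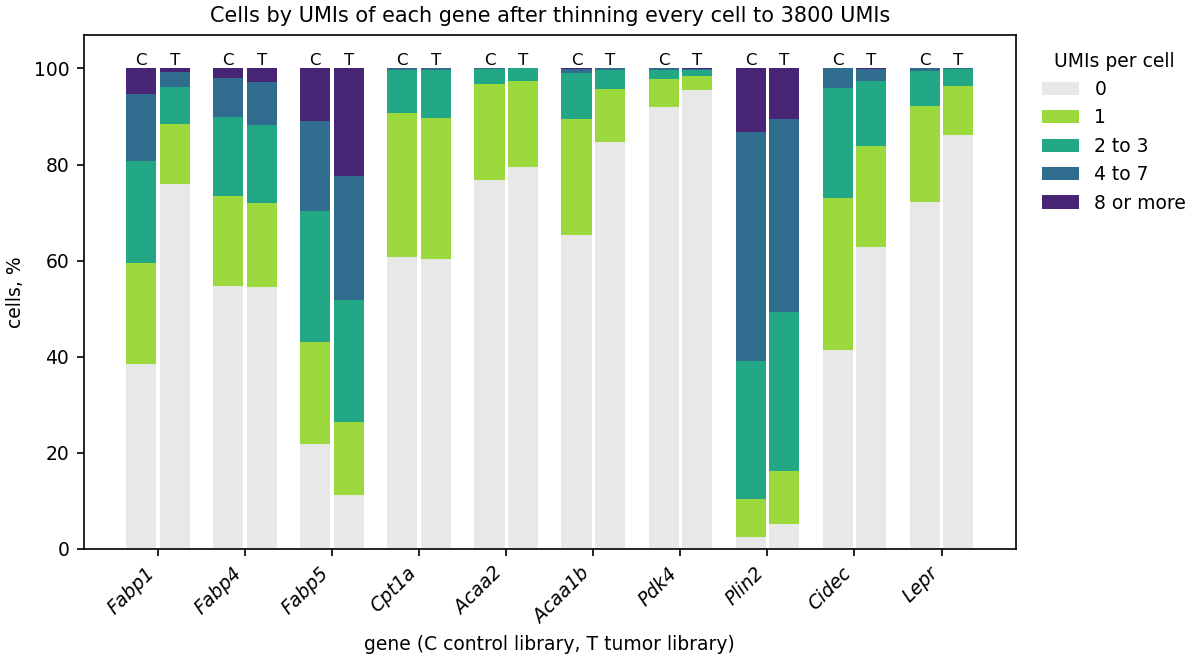
Share of cells (vertical axis, %) with 0, 1, 2 to 3, 4 to 7 and 8 or more UMIs of each gene after thinning to 3800 UMIs, in the control (C, 5590 cells) and tumor (T, 6937 cells) library. The grey part, cells with 0 UMIs, is 38.4% and 75.9% for *Fabp1* and is the smaller in the tumor library for *Fabp5*.

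The cells of 1 library differed from each other far more in some of these genes than in others. Spread was measured at equal depth as overdispersion, the squared coefficient of variation left after counting noise, which is 0 where all cells have the same level. *Cpt1a* (0.117 in the control and 0.145 in the tumor library), *Acaa2* (0.124 and 0.181) and *Plin2* (0.130 and 0.203) lay near the median over all genes of at least 50 CPM, 0.128 and 0.147. The mitochondrial oxidation genes and the droplet coat were therefore spread over the cells much as a typical gene was.

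*Fabp4* (2.38 in the control and 2.33 in the tumor library) and *Fabp5* (1.73 and 1.37) were uneven to a like degree in both libraries. *Fabp1* went from 1.56 to 4.70, *Acaa1b* from 0.825 to 3.0, *Cidec* from 0.314 to 1.20 and *Lepr* from 1.02 to 2.44, so each was more uneven in the tumor library, where each was also lower. *Pdk4* had 7.60 and 21.0, but at means of 0.117 and 0.0724 UMIs per thinned cell these rest on few cells. Of the 10 genes, 5 in the control and 7 in the tumor library exceeded 1, beside 3.50% of 3112 and 4.37% of 3115 genes of at least 50 CPM. *Pdk4* in both libraries and *Lepr* in the tumor library lie under that level and so have no rank among those genes.

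For *Fabp1*, the share of control cells with a UMI would be 85.9% if all cells had the library's level, and it was 61.6%. The corresponding tumor values were 38.9% and 24.1%. In the tumor library *Fabp1* had the 18th highest overdispersion of 3115 genes and *Acaa1b* the 28th.

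To see in which cells the genes differed, cells were clustered on other genes, with the 10 genes and all listed lipid genes left out. There were 14 clusters, lettered A to N by size. Cluster A was led by *Apoe*, *S100a6* and *Spp1* and held 2607 tumor and 114 control cells, 34.0% and 1.84% of the libraries, so it may be a feature of 1 library as much as a cell state. Its levels follow as a description of those cells.

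Within the tumor library, 5 of the 10 genes were low in cluster A. *Fabp1* was at 14.4 CPM (13.0 to 16.0) in cluster A and 194 CPM in the other tumor cells, a log2 ratio of −3.75 (−3.90 to −3.59). *Acaa1b* was at 4.75 CPM and 80.1 CPM (−4.08), *Pdk4* at 0.933 CPM and 26.2 CPM (−4.81), *Lepr* at 3.41 CPM and 70.2 CPM (−4.36), and *Cidec* at 28.0 CPM and 219 CPM (−2.97). The low levels were not confined to cluster A. Cluster I, with 482 tumor cells, held 31.6 CPM of *Fabp1*, 9.85 of *Acaa1b*, 5.84 of *Pdk4*, 31.2 of *Lepr* and 41.4 of *Cidec*. It also held 2179 CPM of *Fabp5* and 1033 CPM of *Apoe*. Here and in the ratios without cluster A, it is counted among the other tumor cells. After thinning, 3.27% of the cells of cluster A had a *Fabp1* UMI, 1.32% an *Acaa1b* UMI, 1.04% a *Lepr* UMI and 0.240% a *Pdk4* UMI, beside 0 of 24 thinned cells of the other types for *Fabp1*, *Acaa1b* and *Pdk4*, which allows up to 12.5%, and 1 of 24 (4.17%) for *Lepr*. With so few cells of other types, these low shares cannot be told from background.

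The other 5 genes, *Fabp4*, *Fabp5*, *Cpt1a*, *Acaa2* and *Plin2*, were within 2-fold in cluster A. *Fabp5* was higher there, at 2400 CPM against 1375 CPM, a log2 ratio of 0.80 that passed 2-fold at a clustering resolution of 1.5 (1.57) and without library correction (1.5). *Fabp4* was at 235 CPM and 449 CPM (−0.94), a difference that was −0.07 without library correction and turned to 0.09 at a clustering resolution of 1.5. *Plin2* was at 880 CPM and 1141 CPM (−0.37), *Acaa2* at 54.0 CPM and 66.1 CPM (−0.29), and *Cpt1a* at 129 CPM and 135 CPM (−0.06). Of the 10 genes, 5 were at least 2-fold lower and 0 at least 2-fold higher, beside 5.92% and 2.67% of 10900 genes, and the median log2 ratio was −1.95 over the 10 genes and −0.08 over all genes.

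Markers of other cells moved with this split. The monocyte-derived or interstitial macrophage list of 10 genes summed to 773 CPM in cluster A and 352 CPM in the other tumor cells, most of it *Cd14* at 543 and 280 CPM, and to 230 CPM in the control library, with no gene at 0. The AM list was at 13116 and 17430 CPM, with 11 and 12 of 13 genes at 50 CPM. The epithelial list was at 44.8 and 337 CPM, most of the latter *Krt19* at 286 CPM, and between whole libraries at 599 CPM in the control and 232 CPM in the tumor library, with no gene at 0 in either. The cycling cell list of 6 genes, led by *Mki67*, summed to 15.4 CPM in cluster A and 153 CPM in the other tumor cells, and to 234 CPM in the control and 104 CPM in the tumor library, with no gene at 0. The fibroblast list of 6 genes, led by *Dcn*, summed to 1.10 CPM in cluster A and 49.8 CPM in the other tumor cells. Between whole libraries it was at 0.771 CPM in the control and 32.4 CPM in the tumor library. *Col1a1* and *Col1a2* were at 0 in cluster A and *Lum* at 0 in the control library. The part of these cells in the gene differences was not tested.

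Without cluster A, the tumor over control log2 ratio was −1.43 (−1.46 to −1.39) for *Fabp1*, −0.68 for *Acaa1b*, −0.51 for *Lepr*, −0.23 for *Cidec* and −0.22 for *Pdk4*, and 1 of the 10 genes, *Fabp1*, still differed by 2-fold. *Fabp4* was at 0.35, *Fabp5* at 0.44, *Cpt1a* at 0.02, *Acaa2* at −0.11 and *Plin2* at −0.09. *Fabp1* was lower in the tumor library in all 14 clusters, with log2 ratios from −0.87 in cluster E to −3.37 in cluster A, and cluster N left aside because it held 1 tumor UMI. Cells of 1 cluster were not alike in both libraries. *Apoe* was at 157 CPM in the 114 control cells and 1245 CPM in the 2607 tumor cells of cluster A. In cluster I it was at 40.0 and 1033 CPM. *Acaa1b* was lower in 12 of 13 clusters and *Lepr* in 12 of 14, whereas *Cidec* was higher in 4 of 14, among them cluster B, with 326 CPM in the control and 362 CPM in the tumor library. *Fabp5* was higher in 11 of 14 and *Fabp4* in 11 of 14. The counts by cluster take any sign, also where the interval included 0. Such were *Lepr* in cluster B (−0.02, −0.16 to 0.12) and *Fabp5* in cluster E (0.0007, −0.03 to 0.03). They include cluster M, with 9 control cells, and, except for *Acaa1b*, cluster N. Like counts over all genes are not given here, so these describe the 10 genes only. With tumor cells reweighted to the cluster shares of the control library, *Cidec* came to 245 CPM beside 254 CPM in the control, whereas *Fabp1* came to 211 CPM beside 515 CPM. With control cells reweighted to the tumor library's cluster shares instead, *Cidec* came to 184 CPM beside 151 CPM in the tumor library, and *Fabp1* to 355 CPM beside 130 CPM. *Acaa1b* and *Lepr* were within 2-fold both ways, at 90.1 CPM beside 126 CPM and 78.8 CPM beside 99.3 CPM with the tumor cells reweighted, and at 81.0 CPM beside 53.1 CPM and 80.8 CPM beside 46.3 CPM with the control cells reweighted.

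Outside cluster A the genes peaked in different clusters. In cluster B, led among genes used for clustering by *Cpne5*, *Abca1* and *Ccnd2* and holding 28.2% of control and 8.43% of tumor cells, *Acaa1b* (173 CPM in the control and 148 CPM in the tumor library) and *Cidec* had their highest levels in both libraries, over 12 control and 13 tumor clusters large enough to compare. *Fabp5* reached 2402 and 2403 CPM in cluster E, led by *Mmp12* and *Mfge8*, and 2463 and 1998 CPM in cluster L, led by *Slc40a1* and *Hmox1*, the iron exporter and heme oxygenase. *Fabp4* was highest in cluster L, with 682 and 744 CPM.

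*Pdk4* and *Plin2* were highest in cluster D, led by the heat shock genes *Hspa1b* and *Hspa1a* and by the immediate early gene *Jun*, with 66.6 and 80.6 CPM of *Pdk4* and 1467 and 1477 CPM of *Plin2*. *Lepr* was highest in cluster G, with 261 and 141 CPM, and this cluster was led by the nuclear RNAs *Neat1* and *Malat1* and had a median of 2831 UMIs and 6.49% mitochondrial UMIs per cell. The part of depth and mitochondrial share in this level was not tested. Cluster J was of similar depth, with a median of 3120 UMIs, but had 2.0% mitochondrial UMIs, and its *Lepr* was at 64.0 and 30.4 CPM. *Acaa2*, *Plin2* and *Cpt1a* varied across clusters by 1.47-fold, 1.76-fold and 2.41-fold in the control library and by 2.54-fold, 1.97-fold and 1.68-fold in the tumor library, whereas *Pdk4* varied 8.17-fold and 86.3-fold, *Lepr* 5.21-fold and 41.3-fold, *Acaa1b* 7.83-fold and 31.1-fold, *Fabp1* 4.97-fold and 22.8-fold, and *Cidec* 3.20-fold and 12.9-fold. For these 5 genes cluster A was the lowest cluster of the tumor library. Its 114 control cells were also the lowest of the 12 control clusters compared for *Fabp1*, *Acaa1b*, *Pdk4* and *Cidec*. *Fabp1* was at 149 CPM and *Cidec* at 102 CPM in them, beside 515 and 254 CPM in the whole control library. For *Lepr* the lowest control cluster was L, at 50.1 CPM, with cluster A at 56.3 CPM.

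**Figure D3:**
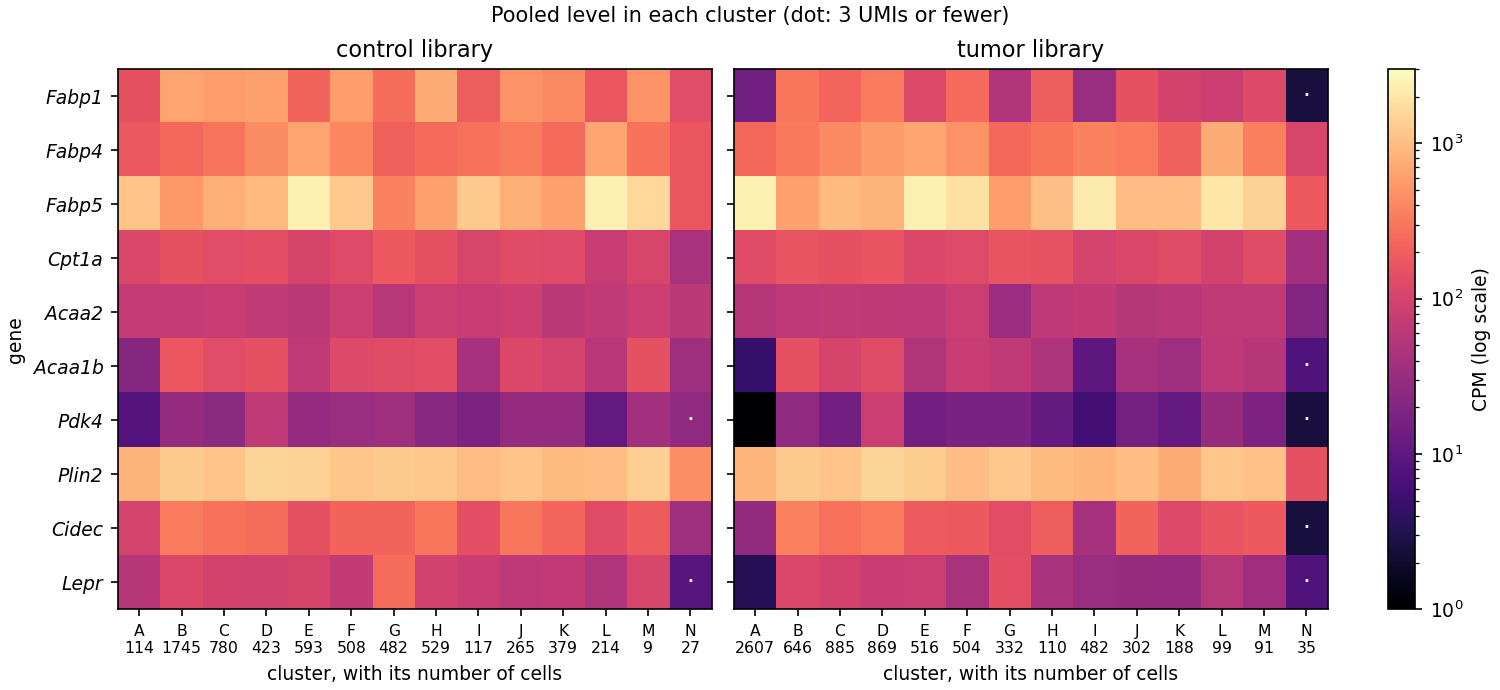
Level of each gene (color, CPM on a log scale) in clusters A to N of the control and the tumor library, with the number of cells under each letter; a dot marks 3 UMIs or fewer, and a count of 0 is drawn at the level of 3 UMIs. In the tumor panel cluster A is dark for *Fabp1*, *Acaa1b*, *Pdk4*, *Cidec* and *Lepr* and bright for *Fabp5* at 2400 CPM.

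Whether the genes occurred in the same cells was described by Pearson r of log2(1 + UMIs) across cells at equal depth, over 5590 control and 6937 tumor cells. The cells of a library share their source and the counts are sparse, which pulls r toward 0, so r carries no p. Over the 45 pairs the median r was 0.02 in the control and 0.04 in the tumor library, and 18 and 10 pairs were below 0. Each gene's median r with all genes of at least 50 CPM had itself a median of 0.003 and 0.006 over the 10 genes. Only 1 control pair and 3 tumor pairs exceeded 0.2. The shares of all gene pairs past 0.2 and below 0 are not given here, so these counts describe the 10 genes only.

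In the control library, the highest pair was *Fabp4* with *Fabp5*, at 0.28, and the lowest was *Fabp5* with *Cidec*, at −0.19. In the tumor library *Fabp1*, *Acaa1b* and *Cidec* formed the 3 highest pairs, with 0.30 for *Fabp1* and *Cidec*, 0.27 for *Acaa1b* and *Cidec*, and 0.24 for *Fabp1* and *Acaa1b*, where the control values were 0.13, 0.12 and 0.17. *Fabp1* and *Acaa1b* were found together in 512 tumor cells beside the 255 that their separate shares give, and in 1390 control cells beside 1191. The ratio of such counts is capped by the share of cells with each gene, which was higher in the control library, so the 2 libraries are not compared by it. Within clusters the median r of these 3 pairs was 0.09, 0.10 and 0.09 in the tumor and 0.04, 0.07 and 0.13 in the control library, so that *Fabp1* with *Acaa1b* was then the higher in the control. *Fabp4* with *Fabp5* went from 0.28 over all control cells to a median of 0.17 within clusters, and from 0.17 to 0.25 in the tumor library.

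Levels were then set side by side by the number of *Fabp1* UMIs. Tumor cells with 3 or more thinned *Fabp1* UMIs, 6.62% of the library, held 350 CPM of *Cidec*, 141 CPM of *Acaa1b* and 45.9 CPM of *Pdk4*, while cells with none held 123, 37.0 and 13.4 CPM. In the control library, cells with 3 or more *Fabp1* UMIs held 316 CPM of *Cidec*, 176 CPM of *Acaa1b* and 27.9 CPM of *Pdk4*, and cells with none held 226, 92.1 and 30.3 CPM, so *Pdk4* alone of the 3 was not the higher there. *Fabp5* ran the other way, from 1630 CPM in tumor cells without *Fabp1* to 812 CPM in those with 3 or more UMIs, and from 1159 to 631 CPM in the control library. *Fabp4* went from 314 to 462 CPM in the tumor library but from 373 to 252 CPM in the control, and *Lepr* from 37.9 to 84.9 CPM in the tumor library and from 101.3 to 96.4 CPM in the control. *Cpt1a* stayed between 127 and 153 CPM in all 6 groups of cells.

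**Figure D4:**
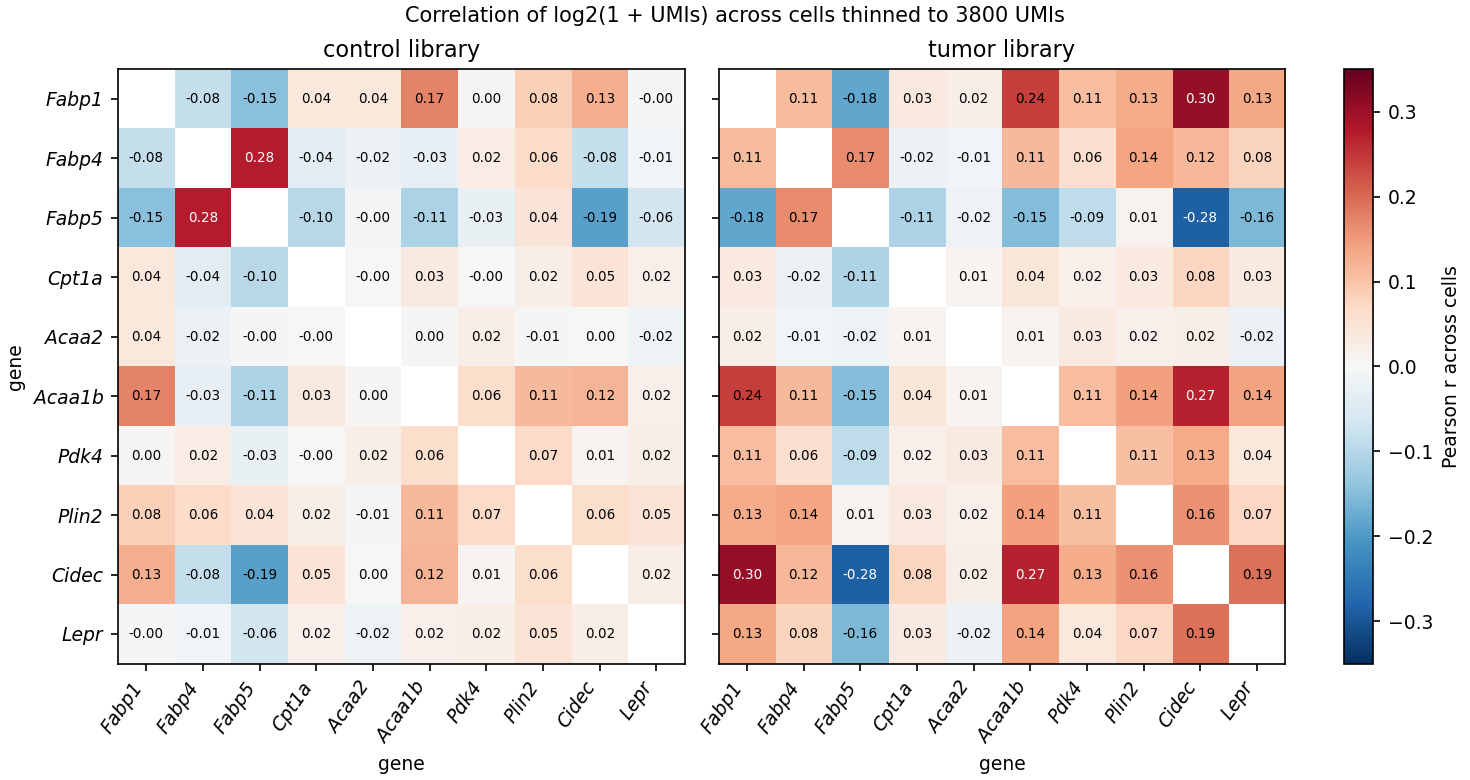
Pearson r across cells for each pair of genes (color and printed value), in the control (5590 cells) and the tumor library (6937 cells), at 3800 UMIs per cell. *Fabp1*, *Acaa1b* and *Cidec* stand out in the tumor panel at 0.24 to 0.30, and *Fabp5* with *Cidec* is the lowest pair in both panels.

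The genes most like each member, by the same r among 3112 control and 3115 tumor genes of at least 50 CPM, differed between the *Fabp* genes. *Fabp5* went with *Fth1* (0.44 in the control and 0.56 in the tumor library) and *Ftl1* (0.35 and 0.40), the ferritin heavy and light chains, and with *Gpnmb* (0.33) in the control and *Ctsd* (0.43) in the tumor library, 2 genes known from lysosomes. *Fabp4* went with *Fabp5*, *Ctsd* (0.17) and *Cd63* (0.17) in the control library, and with *Krt19* (0.22), *Txn1* (0.20) and *Ctsk* (0.20) in the tumor library. *Fabp1* went with *Tmsb4x* (0.24), *Ear1* (0.21) and *Acaa1b* in the control library, and with *Ccnd2* (0.31), *Cidec* and *Krt19* (0.30) in the tumor library.

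*Cidec* went most with *Krt19* (0.40), *Ccnd2* (0.36) and *Krt79* (0.36) in the tumor library and with *Abcg1* (0.18), a cholesterol exporter, *Anxa2* (0.14) and *Cd44* (0.13) in the control library. In the tumor library the nearest 3 also held *Krt19* (0.22) and *Krt79* (0.17) for *Plin2*, *Krt19* (0.28) and *Ccnd2* (0.28) for *Acaa1b*, and *Ccnd2* (0.20) and *Krt79* (0.20) for *Lepr*. *Krt19* is on the epithelial list and *Krt79* on the AM list. *Pdk4* went with *Hspa1b*, *Hspa1a* and *Jun* in both libraries, at 0.09, 0.08 and 0.08 in the control and 0.18, 0.18 and 0.17 in the tumor library.

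*Lepr* in the control library went with the nuclear RNAs *Malat1* (0.15), *Neat1* (0.12) and *Kcnq1ot1* (0.11), and *Plin2* there with *Lgals3* (0.16), *Cebpb* (0.15) and *Gdf15* (0.13). *Acaa1b* in the control library had *Fabp1*, *Abcg1* (0.15) and *Ear1* (0.12). For *Cpt1a* and *Acaa2* the highest r was 0.10, that of *Abcg1* with *Cpt1a* in the tumor library.

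Among the remaining genes of these pathways about as many were higher as lower in the tumor library. Levels of different genes are set side by side in UMIs, which count 3′ ends and do not scale with transcript length. Of 132 genes on 11 lists, 111 had a mean of at least 1 CPM and 101 of these were not among the 10 genes. Of those 101, 50 were lower and 51 higher in the tumor library, beside 57.4% and 42.6% of all genes, with a median log2 ratio of 0.01. By at least 2-fold, 2 were lower and 3 higher, beside 7.23% of all genes either way. The 2 lower ones were *Scd1*, the stearoyl-CoA desaturase (11.5 and 4.93 CPM, −1.23), and the elongase *Elovl6* (14.2 and 6.44 CPM, −1.14). The 3 higher ones were *Fabp7*, the brain-type binding protein (0.632 and 3.21 CPM, 2.35), *Dgat1*, which makes triglyceride (81.2 and 169 CPM, 1.06), and *Socs3*, an inhibitor of leptin and cytokine receptors (8.57 and 38.9 CPM, 2.18).

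On the mitochondrial beta-oxidation list, 16 of 18 genes were lower and 2 higher in the tumor library, beside 57.4% and 42.6% of all genes. The same shares stand beside the counts of the lists that follow. The median log2 ratio of the mitochondrial list was −0.13, and 0 of 18 reached 2-fold. *Etfb*, the most abundant gene of that list, was at 351 and 276 CPM (−0.35). The peroxisomal list had 8 of 15 lower and a median of −0.06, with *Acaa1b* the only gene past 2-fold and *Scp2* the most abundant at 419 and 346 CPM (−0.27). The carnitine shuttle list had 3 of 6 lower, with a median of 0.01 and *Cpt1a* the most abundant.

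Of the lipid droplet genes, 4 of 9 were lower and 5 higher, with a median of 0.05. The uptake and activation list had 4 of 11 lower and a median of 0.12, with *Lpl*, lipoprotein lipase, the most abundant at 2784 and 2415 CPM (−0.20). For triglyceride synthesis and breakdown, 5 of 12 were lower, with *Lpin1* the most abundant at 339 and 262 CPM (−0.37). For fatty acid synthesis, 5 of 10 were lower, with *Acly* the most abundant at 86.0 and 106 CPM (0.30). Of the pyruvate dehydrogenase genes, 5 of 9 were lower, and *Pdhb* was at 61.3 and 57.8 CPM (−0.08).

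Of the lipid-sensing nuclear receptors and their partners, 3 of 9 were lower and 6 higher. *Pparg* was at 127 CPM in the control and 119 CPM in the tumor library (−0.10), named here after its values were seen because it heads that list, and *Klf4*, the most abundant, was at 389 and 587 CPM (0.59). *Ppara* and *Ppargc1a* were under 1 CPM. Of the leptin receptor genes, 4 of 8 were lower, and *Ptpn1*, a phosphatase of that pathway, was the most abundant at 265 and 274 CPM (0.04), so that *Lepr* and *Socs3* were the 2 genes past 2-fold, in opposite directions.

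**Figure D5:**
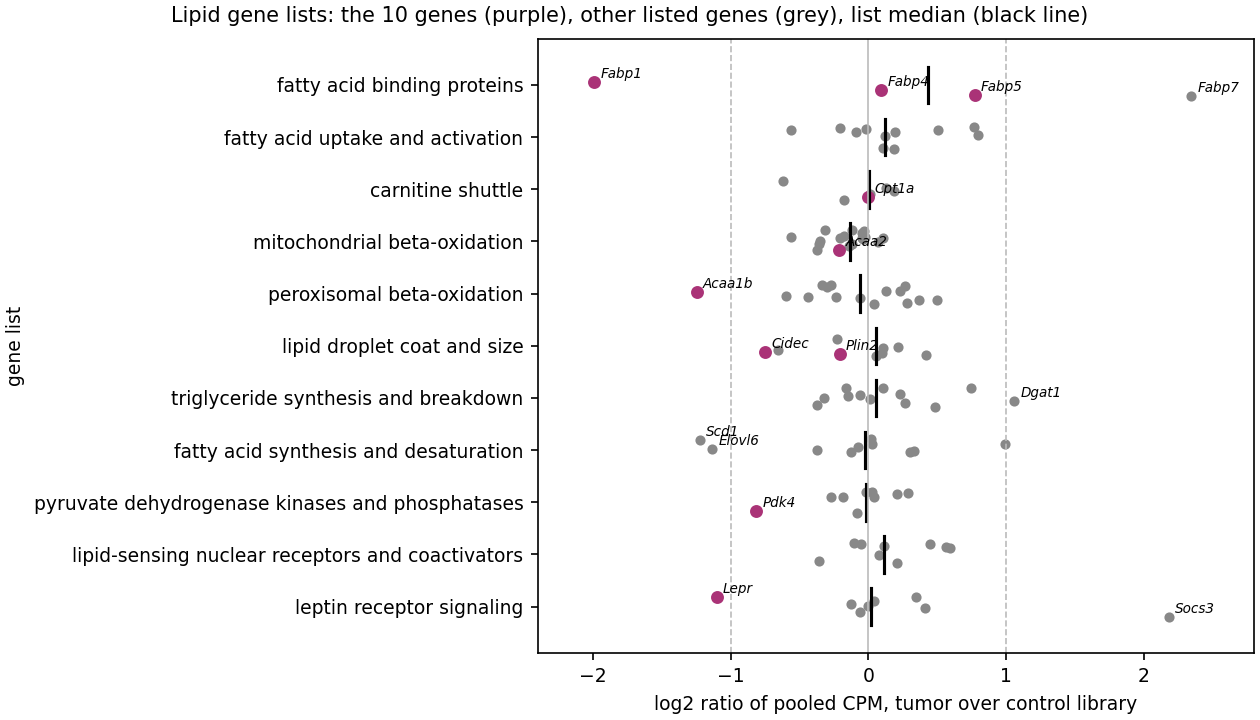
Log2 ratio of tumor over control CPM (horizontal axis) of the 111 tested genes on 11 lipid gene lists (rows), the 10 genes in purple, the others in grey, each list's median as a black line and dashed lines at 2-fold. *Fabp1* at −1.99 lies farthest to the left, and the mitochondrial beta-oxidation genes lie within 2-fold of 0.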

How the data were processed

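The authors made the deposited counts, raw UMI counts per gene and barcode, with 10x Genomics Cell Ranger (version 5.0.0 in the study's methods, 4.0.0 in the submitters' processing notes, which also name bcl2fastq 2.20 and mm10). Of 32285 gene identifiers, 32158 matched a symbol. The genes, lists and alternatives were chosen with earlier results of these data known, and every gene of a list, every gene past 2-fold, the most abundant gene of each list and the 3 most correlated genes per member were eligible to be named.

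Kept barcodes had at least 500 genes and at most 10% mitochondrial UMIs (control 64850143 and tumor 68801889 UMIs in all). Levels are CPM of summed UMIs with exact 95% Poisson intervals, and ratios have exact conditional binomial intervals. No count model was fitted. Shares, overdispersion and r used counts thinned at random to 3800 UMIs per cell (the lower of both 10th percentiles of depth, rounded down), leaving out 595 control and 729 tumor cells.

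Clustering followed the study's Scanpy, batch correction and Leiden steps, with 2000 variable genes, 50 components, a mutual nearest neighbor correction (20 neighbors, kernel parameter 5, chosen after seeing that a wider correction split the tumor cells) in place of Scanorama, a 15-neighbor graph and resolution 1. Clusters were rebuilt, and how they map onto the study's clusters was not tested. Scrublet called 0 doublets at its automatic threshold, so doublets were kept, and cells scoring above the limit of the top 6% of their library (274 control and 410 tumor cells, as scores were tied at that limit) were left out as an alternative. In cluster M, 70% of cells had such scores. Clusters with under 50 cells would have been left out, and none was. Gene positions came from GENCODE vM21 on GRCm38. The statistics were tested on simulated data.

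Tables were handled with pandas 2.3.3 and anndata 0.12.19, intervals computed with scipy 1.17.1 and numpy 2.4.6, clusters found with igraph 0.11.9, leidenalg 0.10.2 and scanpy 1.11.5, components and neighbors with scikit-learn 1.9.0, and figures drawn with matplotlib 3.10.9, all under Python 3.11.15.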

Additional observations from a re-analysis of the deposited data

Results flagged for a closer look

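Barcodes that failed the quality filter, 2300 in the control and 1509 in the tumor library with medians of 1002 and 1067 UMIs, still held the 10 genes, and were singled out because no comparison above uses them. Their summed level was 2372 CPM (2318 to 2428) in the control and 2289 CPM (2222 to 2358) in the tumor library, beside 3806 and 3753 CPM in the kept barcodes. *Fabp1* was at 203 CPM and 51.6 CPM in them, a log2 ratio of tumor over control of −1.98, and *Acaa1b* at 140 CPM and 68.2 CPM, a log2 ratio of −1.04. *Fabp4*, at 157 CPM and 250 CPM, had a log2 ratio of 0.67 in them against 0.09 in kept cells, and *Cpt1a*, at 89.8 CPM and 67.1 CPM, one of −0.42 against −0.00. *Lepr*, at 222 CPM and 135 CPM, was above its level in kept cells in both libraries, and *Plin2* was nearly level at 1039 and 1033 CPM. What these barcodes are was not tested.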

How the results depend on the processing

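No paired analysis was possible because there was 1 library per condition, and for the same reason no library could be left out. Depth limits the shares: the median share over the 10 genes was 42.3% in the control and 30.6% in the tumor library, 28.5% and 20.9% at 2000 UMIs per cell, 18.6% and 10.9% for at least 2 UMIs, and 64.4% and 45.3% unthinned, so the control value was the higher in each. Leaving out the *Apoe*-led cluster, an alternative added after seeing the data, changed the number of the 10 genes at least 2-fold apart from 3 to 1, that of all 111 listed genes from 8 to 3, and the tumor share to 38.3%. The median r of the tumor library, 0.042, was 0.078 unthinned and 0.014 within its largest cluster. The cause of these shifts was not tested. Removing doublets, a filter of at least 1000 genes and at most 5% mitochondrial UMIs, the mean of each cell's CPM, another scaling, thinned counts and leaving out the low-depth clusters or the cells of other types each kept 3 of the 10 genes at 2-fold. In these the log2 ratios kept their direction except that of *Cpt1a*. Of the values of single genes, 45 moved by more than counting error under an alternative and 65 did not. The number of genes at least 2-fold lower in the *Apoe*-led cluster was 5 at resolutions of 0.5 and 1.5 and without library correction, although that cluster then held 2931, 860 and 1186 tumor cells in place of 2607.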
